A study of Sus scrofa with 23 samples.

Results

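This comparison sets affected against non-affected articular cartilage of the medial femoral condyle, the part of the knee joint surface on which osteochondrosis often forms. Its members are the arrays that the labels place at the condylus medialis femoris, 9 of the 23 arrays of the study: 4 of cartilage labelled affected and 5 labelled non-affected, or 8 of 21 samples once near-identical arrays were averaged. All animals were Duroc x Pietrain crossbreed pigs drawn as affected and non-affected sib pairs, and the other 14 arrays are of the humeral condyle. Total RNA was measured on the Affymetrix Porcine Genome Array, whose probe sets each report the level of 1 transcript or part of it. The labels give no age, sex or treatment, do not say that arrays came from separate animals, and do not say which animals were sibs. The p-values below therefore measure only the spread between these samples, which may be technical.

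Osteochondrosis is a disorder of the growing joint surface in which cartilage under the articular layer is not turned into bone in the usual way, so that areas of retained cartilage remain. Mature articular cartilage has no vessels of its own and lives on glycolysis at low oxygen. It is built by chondrocytes from collagen II and the proteoglycan aggrecan. Where growing cartilage meets bone, chondrocytes enlarge, make collagen X and alkaline phosphatase, and are replaced by vessels, macrophage-lineage cells and osteoblasts.

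Values are log2 signals as deposited, with a floor at 4, and a difference is always affected minus non-affected on that scale. Non-affected arrays 1 and 2 differed by a standard deviation of only 0.214 over the probe sets (r = 0.994) and were averaged as 1 sample, called non-affected 1, which left 4 samples against 4. Medians of the 9 arrays ran from 6.04 to 6.17, and 3.28% to 4.50% of the probe sets of an array lay at the floor. The 3′ signal of the GAPDH control exceeded its 5′ signal by 0.63 to 0.85 on every femoral array. A 3′ actin control (AFFX-Ss_Actin_3_s_at) read 15.6 on affected 2, 16.5 on non-affected 4 and 15.4 on non-affected 5, and 8.52 to 9.11 on the other femoral arrays. Those 3 samples also had the highest means of the skeletal muscle genes, at 7.14, 7.93 and 7.03, and a link was not tested. The part of this control in the results was not tested beyond the counts given below without those 3 samples.

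The tissue label held: aggrecan (ACAN) read 13.07 to 13.67, cartilage oligomeric matrix protein (COMP) 13.48 to 13.98 and collagen II (COL2A1) 11.63 to 12.52 over the 8 samples. The samples did not fall into separate clusters by status. On the first principal component, which held 40.1% of the variance, affected 2 and 3 lay at -54.9 and -43.8 and non-affected 3 and 4 at 35.6 and 46.6. The other 4 samples lay between them, at -2.48 and 5.19 for affected 1 and 4 and at -0.20 and 14.0 for non-affected 1 and 5. Affected 1 was closest to non-affected 1 and affected 4 to non-affected 5, so both of these affected samples lay nearer to a non-affected sample than to another affected one.

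**Figure D1:**
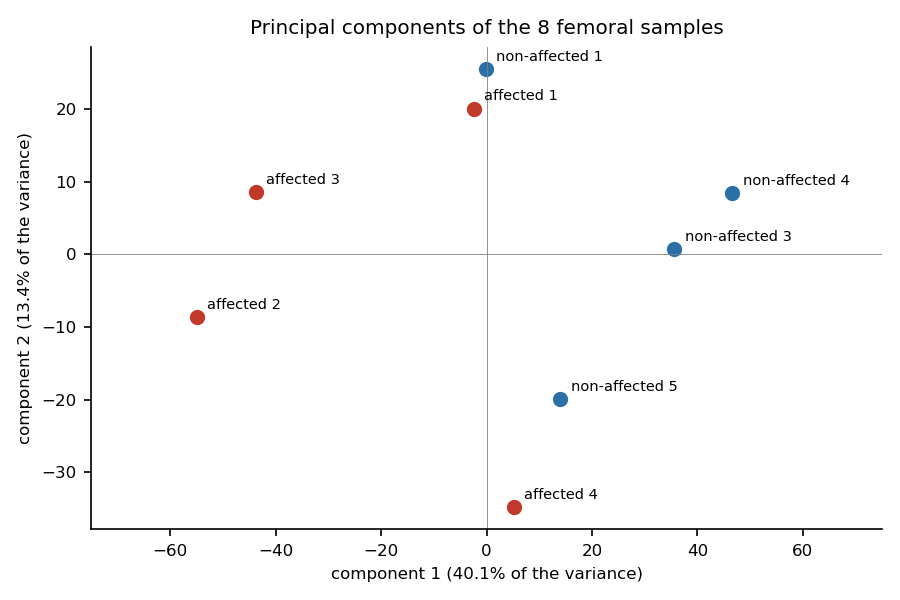
Score of each femoral sample on the first (horizontal) and second (vertical) principal component of the log2 signals of 16799 probe sets, without units; red points are affected and blue points non-affected samples. Affected 2 and 3 stand at the left end, non-affected 3 and 4 at the right end, and the other samples lie between.

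The central question was which transcripts differ with disease status in the femur. In the fit of the femoral samples alone, 4 of 16799 probe sets (0.0238%) passed an adjusted p under 0.05, and all 4 were lower in affected cartilage; 2 of them carry a gene name, HP and AZGP1. HP encodes haptoglobin, the plasma protein that binds free haemoglobin. Its signal was 4.37, 4.08, 4.84 and 4.02 in affected 1, 2, 3 and 4 and 6.37, 7.58, 7.72 and 6.88 in non-affected 1, 3, 4 and 5. Every affected sample lay near the floor and below every non-affected sample. HP fell by 2.81 ± 0.31 (SE), with a limma adjusted p of 0.0445. It passed the filter on low values only through the non-affected samples, and with affected signals so near the floor no fold is given.

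AZGP1, the second named gene, encodes zinc-alpha-2-glycoprotein, a secreted protein with the fold of a class I histocompatibility molecule that promotes lipid breakdown. Its signal was 5.94, 5.88, 6.50 and 6.11 in the affected samples and 8.70, 7.73, 8.19 and 7.80 in the non-affected ones, in the same order. The groups were well apart, with the highest affected sample more than 1 log2 unit below the lowest non-affected sample. AZGP1 fell by 2.0 ± 0.24 (3.99-fold, adjusted p = 0.0471).

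The remaining 2 probe sets that passed have no gene name in the annotation used. Ssc.7996.1.A1_at had the smallest p of all: it read 6.05, 5.03, 6.87 and 6.67 in the affected and 10.26, 10.11, 9.67 and 9.96 in the non-affected samples. This was also the lowest difference among the probe sets tested, at -3.84 ± 0.36 (adjusted p = 0.0213). For Ssc.26212.1.S1_at the signal was 5.20, 4.18, 4.21 and 4.33 against 6.72, 6.95, 6.16 and 6.64, a difference of -2.14 ± 0.26 (adjusted p = 0.0471). In both, no affected sample reached the level of any non-affected sample. The affected mean of Ssc.26212.1.S1_at, 4.48, lay under the level of the filter on low values (5.18). Like HP, it passed that filter only through the non-affected samples.

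These 4 calls are few, and their number moved with single samples. Leaving out affected 1 gave 42 calls, leaving out affected 2 gave 2, leaving out affected 3, affected 4 or non-affected 1 gave 1 each, and leaving out non-affected 3, 4 or 5 gave none. HP kept its call without affected 1 or non-affected 1 and AZGP1 without affected 1, and each lost it without any other sample (adjusted p up to 0.154 for both). Without the 3 samples with a high actin control the femoral fit gave 0 calls, against 1190 probe sets at an unadjusted p under 0.05. In all 8 samples, at an unadjusted p under 0.05, 1230 probe sets were higher (7.32%) and 1316 lower (7.83%) in affected cartilage. The large differences lay mostly on the lower side: 56 probe sets differed by -2 or less and 4 by 2 or more, while the median over all probe sets was 0.01. The groups did not overlap for 482 probe sets with affected higher (2.87%) and 856 with affected lower (5.1%).

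**Figure D2:**
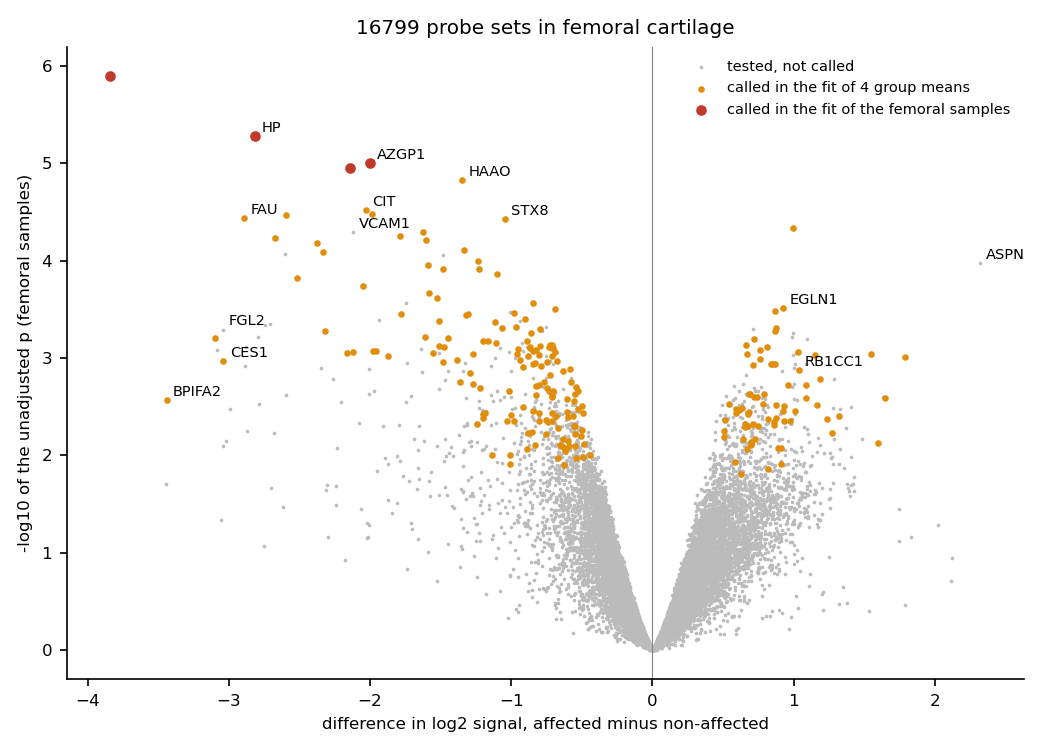
Each point is 1 of 16799 probe sets: horizontally the difference in log2 signal, affected minus non-affected, and vertically -log10 of the unadjusted p in the fit of the femoral samples. The 4 red points passed in that fit and are all on the left; the 155 lower and 73 higher calls of the fit of 4 group means are orange, except 3 that are also red.

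Several genes followed just outside the threshold, and for each of them the 2 groups were fully apart. They were chosen for a small p in these same samples, so this separation adds no support. HAAO, an enzyme of the kynurenine branch of tryptophan breakdown, read 4.97, 5.26, 5.69 and 5.47 in the affected and 6.75, 6.61, 6.70 and 6.72 in the non-affected samples. Its non-affected values were nearly level while the affected ones were more spread, and the difference was -1.35 ± 0.17 (adjusted p = 0.0503). TNFSF13, the B cell survival ligand APRIL, read 6.33, 5.22, 4.94 and 5.43 against 7.55, 7.30, 7.68 and 7.35, a difference of -1.99 ± 0.27 (adjusted p = 0.0633). Affected 1 was the highest affected sample and still lay below all non-affected samples. A further TNFSF13 probe set differed by only -0.51.

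STX8, a membrane fusion protein of endosomes, read 9.13, 8.97, 9.20 and 9.0 in affected and 10, 10.20, 10.36 and 9.92 in non-affected cartilage (-1.05 ± 0.15, adjusted p = 0.0633), and its other probe set differed by only -0.23. GADD45A, which is induced by DNA damage and other stress, read 7.72, 6.77, 6.96 and 6.76 against 8.58, 9.06, 8.49 and 8.60 (-1.63 ± 0.24, adjusted p = 0.0640). VCAM1, a cell adhesion molecule that binds leukocyte integrins, read 7.06, 7.76, 6.84 and 8.09 against 9.36, 9.13, 9.66 and 10.10 (-2.12 ± 0.31, adjusted p = 0.0640). All 3 were lower in each affected sample than in any non-affected sample. The probe sets named for CIT, the cytokinesis kinase citron, and for FAU, a ubiquitin-like protein fused to a ribosomal protein, differed by -2.03 ± 0.28 and -2.89 ± 0.40 (adjusted p = 0.0633 for both). The FAU value rests on 1 probe set, since the other FAU probe sets differed by -0.11 and -0.23.

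The same femoral difference was then fitted with the means of all 4 groups over both joint sites, where the spread of a probe set is estimated from 21 samples rather than 8. The fit takes the spread to be the same at both sites. Leaving out 1 femoral sample does not test this. Spiked control probe sets were higher on the femoral than on the humeral arrays by 0.21 to 1.62; the part of this in the pooled spread was not tested. In this fit 155 probe sets fell (0.923%) and 73 rose (0.435%), and 3 of the 4 calls of the femoral fit were among them; HP was not (adjusted p = 0.0707). Gene names were uneven: 88 of the 155 that fell carry 1 gene symbol, for 85 genes, but only 15 of the 73 that rose, against 47.7% of all probe sets tested. The groups did not overlap for 209 of the 228 calls, 65 that rose and 144 that fell, against 2.87% and 5.1% of all probe sets. The calls were chosen on these same femoral samples, so this count adds no support. The count ran from 73 calls without affected 3 to 573 without affected 4, with 500 without affected 1, 136 without non-affected 4, 97 without affected 2 and 95 without non-affected 3. Without the 3 samples with a high actin control it was 99.

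Among the genes that fell in that fit, the lowest difference was that of BPIFA2, a secreted protein of saliva and airway lining. It read 8.31, 4.86, 4.0 and 4.04 in the affected and 9.03, 8.79, 9.37 and 7.78 in the non-affected samples. Affected 1 lay at the level of the non-affected samples and the other affected samples at or near the floor, so the groups overlapped (-3.44 ± 0.77, adjusted p = 0.0308). That call was kept without affected 1, affected 4 or non-affected 5 and lost without each of the other samples, with an adjusted p of up to 0.117. Carboxylesterase 1 (CES1), which hydrolyses esters of lipids and drugs, read 4.34, 4.37, 4.45 and 5.07 against 9.20, 7.39, 5.45 and 8.34, with all affected samples low and a wide spread among the non-affected ones (-3.04 ± 0.48, adjusted p = 0.00175). AQP5, a water channel of secretory epithelia, read 5.05, 4.39, 4.49 and 4.15 against 6.61, 8.30, 5.80 and 6.65 (-2.32 ± 0.34, adjusted p = 0.000719). CES1 and AQP5 kept these calls over 4 group means without any 1 femoral sample. In the femoral fit neither passed (adjusted p = 0.142 for CES1 and 0.139 for AQP5), with SE of 0.66 and 0.46. Their humeral means were low, 5.28 and 5.12 for CES1 and 4.94 and 5.17 for AQP5 in affected and non-affected cartilage. Their affected femoral means, 4.56 and 4.52, lay under the filter level of 5.18, so both passed that filter only through the non-affected samples.

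MMP3, the matrix protease stromelysin, was the leading member of the protease list. Its probe set Ssc.15927.2.S1_at read 7.31, 4.67, 4.73 and 6.34 in the affected and 8.77, 7.78, 9.05 and 9.83 in the non-affected samples. Affected 2 and 3 were lowest, affected 1 came close to the lowest non-affected sample, and the groups did not overlap (-3.10 ± 0.77, adjusted p = 0.0482). The call held without affected 1 or affected 4 and was lost without each other femoral sample (adjusted p up to 0.157). Other MMP3 probe sets differed by -2.60 and -1.21. IGFBP6, which binds insulin-like growth factor II, read 9.97, 8.69, 8.10 and 9.95 against 10.79, 10.91, 11.63 and 11.29 (-1.98 ± 0.40, adjusted p = 0.0181); its further probe set differed by -2.17, and its call was lost without affected 2, affected 3 or non-affected 4.

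FAM46C, a cytoplasmic poly(A) polymerase, read 7.37, 5.21, 5.86 and 6.62 against 8.40, 9.31, 8.87 and 8.56 on the probe set that fell (-2.52 ± 0.38, adjusted p = 0.00111), while its other probe set differed by 0.08. CIT, FAU, AZGP1, TNFSF13, HAAO and STX8 also passed in this fit, with adjusted p between 1.11e-05 for CIT and 0.0102 for STX8. They kept their calls without any 1 femoral sample. Of these genes only AZGP1 passed in the femoral fit. For CIT and FAU the SE was 0.28 and 0.40 there (adjusted p = 0.0633 for both) and 0.20 and 0.31 here. For AZGP1, TNFSF13, HAAO and STX8 it was larger here. CIT and FAU were low in the humerus, at 4.83 and 4.81 for CIT and 5.37 and 5.20 for FAU in affected and non-affected cartilage. CIT passed the filter on low values only through the non-affected samples. Without the 3 samples of high actin STX8 (adjusted p = 0.110) and TNFSF13 (0.0624) lost their calls over 4 group means. STX8 also lost its call without affected 1, affected 3 and non-affected 4. GADD45A passed too (0.0306) but not without affected 2, affected 3, non-affected 3 or non-affected 4. GFAP, an intermediate filament of glia that was on the nerve list, fell by 1.16 ± 0.23 (adjusted p = 0.0142) on 1 probe set, while another differed by 0.41; this call was lost without affected 3 or non-affected 3.

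**Figure D3:**
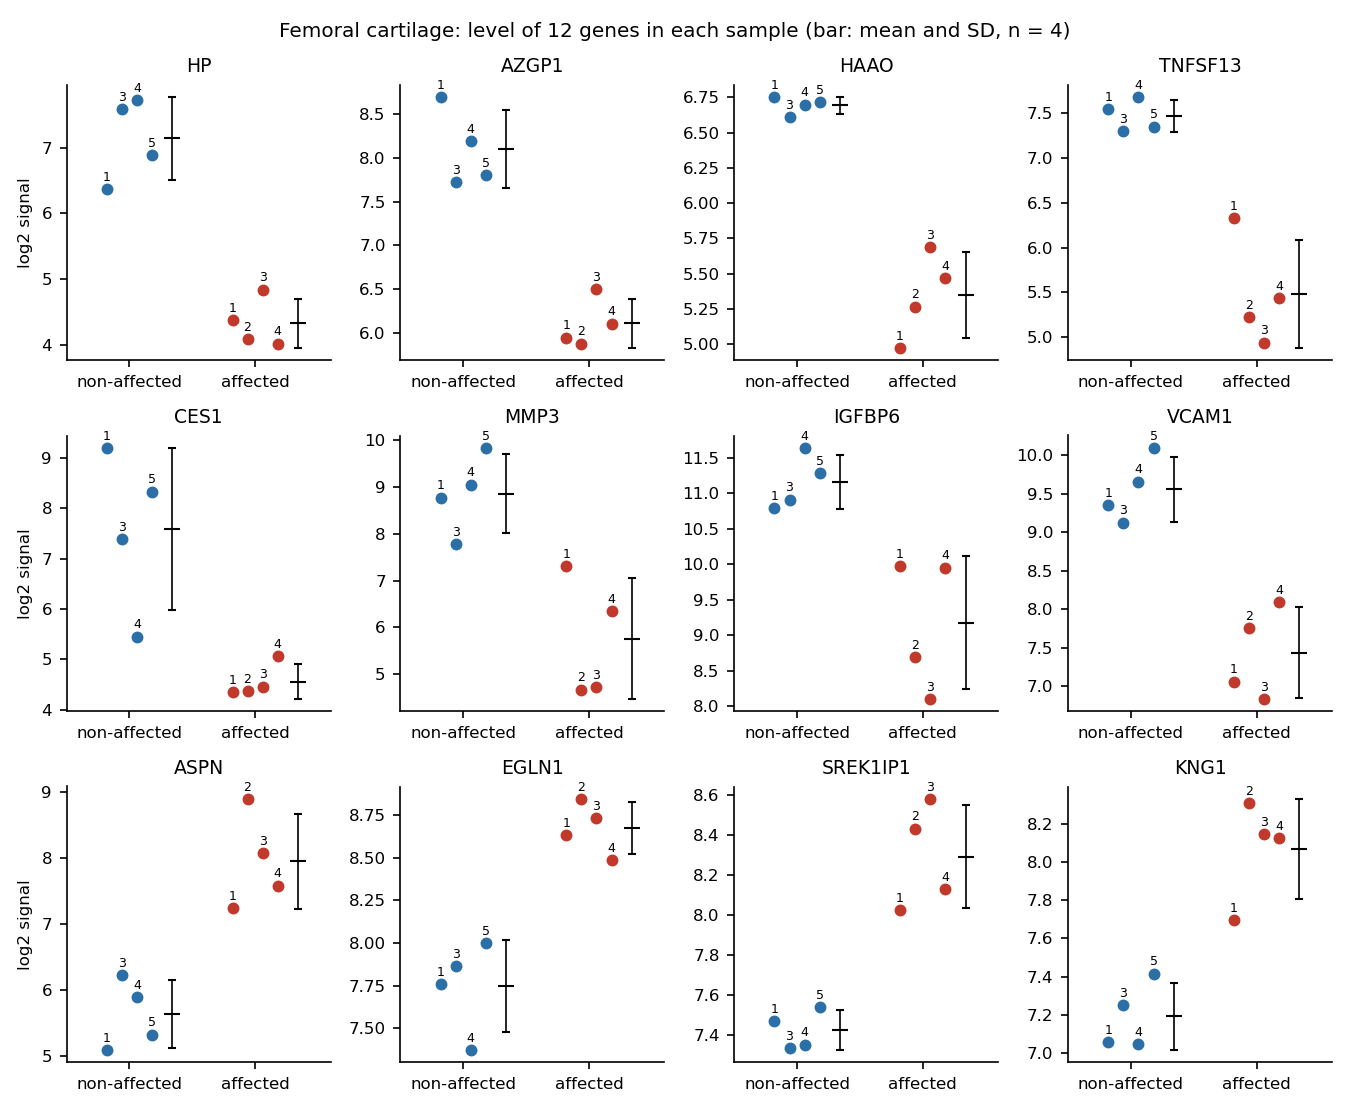
Log2 signal of 12 genes in each femoral sample, with blue for non-affected and red for affected samples, the sample number above each point and, at the right, the group mean with its SD (n = 4); each panel has its own vertical range. In HP, AZGP1, HAAO, TNFSF13, CES1, MMP3, IGFBP6 and VCAM1 all affected samples lie below all non-affected ones, and in ASPN, EGLN1, SREK1IP1 and KNG1 above them.

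Some genes differed as much without passing either fit. FGL2, a fibrinogen-like protein of immune cells, read 6.89, 4.97, 5.18 and 6.91 against 8.21, 8.18, 9.42 and 10.32 (-3.04 ± 0.59, adjusted p = 0.139). Affected 2 and 3 were again lowest, and affected 1 and 4 lay more than 1 unit below the non-affected samples. C4BPA, an inhibitor of complement (-2.88 ± 0.60), the chemokine CXCL14 (-2.75 ± 0.53), and INMT, which methylates indole amines (-2.71 ± 0.52), had the same adjusted p of 0.139. None of the 4 had overlapping groups, but they were chosen by a rule that required this, so it adds no support. Their fits over 4 group means gave adjusted p-values between 0.0705 for C4BPA and 0.180 for INMT.

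Fewer named genes were higher in affected cartilage, and their differences were smaller. The highest difference among the probe sets tested belonged to ASPN, asporin, a small leucine-rich proteoglycan that binds collagen and transforming growth factor beta. Its signal was 7.25, 8.90, 8.08 and 7.58 in the affected and 5.09, 6.22, 5.89 and 5.32 in the non-affected samples. The groups were apart by about 1 unit, with affected 2 the highest. The difference of 2.32 ± 0.37 (4.99-fold) did not pass (adjusted p = 0.0780 in the femoral fit and 0.0702 over 4 group means).

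Of the 15 named genes that rose in the fit of 4 group means, RB1CC1 had the largest difference. RB1CC1, which starts the formation of autophagosomes, read 7.14, 7.26, 7.50 and 6.82 in the affected and 6.17, 5.72, 5.97 and 6.71 in the non-affected samples (1.04 ± 0.25, adjusted p = 0.0419). EGLN1, the prolyl hydroxylase that marks hypoxia-inducible factor for destruction, read 8.63, 8.84, 8.73 and 8.48 against 7.76, 7.86, 7.37 and 8.0 (0.92 ± 0.22, adjusted p = 0.0419). Both lost their calls without non-affected 1, 3 or 4 or affected 2 or 3. A brighter EGLN1 probe set differed by 0.72, also with no overlap, and did not pass (adjusted p = 0.0779).

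KNG1, the precursor of bradykinin, read 7.70, 8.31, 8.15 and 8.13 in affected and 7.06, 7.25, 7.04 and 7.41 in non-affected cartilage (0.88 ± 0.16, adjusted p = 0.00668), but another KNG1 probe set differed by -0.10. NUP50, a protein of the nuclear pore, read 7.38, 6.90, 7.33 and 7.30 against 6.77, 6.15, 6.10 and 6.43 (0.87 ± 0.16, adjusted p = 0.0108). Both calls held without any 1 femoral sample but not in every alternative: both were lost without the 3 samples of high actin (adjusted p = 0.0709 for KNG1). NUP50 was also lost without affected 1, affected 3 and non-affected 4, the 3 samples with a high signal of the bone gene IBSP (adjusted p = 0.214). The splicing-related gene SREK1IP1 read 8.03, 8.43, 8.58 and 8.13 against 7.47, 7.34, 7.35 and 7.54 (0.87 ± 0.17, adjusted p = 0.0155), and its call was lost without affected 2, affected 3 or non-affected 3.

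The next in size were APPL2, an endosomal adaptor (0.82), the transcription factor KLF13 (0.81), PLEKHO1, a negative regulator of bone formation (0.72), BMP15, a growth factor best known from the oocyte (0.69), and the microtubule motor KIF2A (0.69), with adjusted p between 0.0192 and 0.0456. Of the single samples left out, PLEKHO1 lost its call only without affected 3; APPL2 lost it without affected 2, non-affected 3 or non-affected 4, KLF13 without affected 2 or non-affected 1, 3 or 4, KIF2A without affected 2 or 3 or non-affected 3 or 4, and BMP15 without affected 1, 2 or 3 or non-affected 3 or 4. Other probe sets of APPL2 (-0.36) and PLEKHO1 (0.18 and -0.16) did not show these differences. Larger than any of these was the unnamed probe set Ssc.7604.1.A1_at, which rose by 1.79 ± 0.41 (adjusted p = 0.0328), from 7.58, 7.28, 6.44 and 7.09 in the non-affected to 8.69, 9.60, 9.39 and 7.86 in the affected samples. Among genes whose groups did not overlap but which passed neither fit, the differences were 1.1 for the small GTPase RHOQ, 1.09 for the splicing factor LUC7L3, 1.01 for SMIM15, 1.0 for the chaperone HSPA4, 1.0 for the RNA-binding ubiquitin ligase MEX3C, 0.99 for septin SEPT7 and 0.98 for the channel kinase TRPM7.

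Gene lists for cartilage processes and cell types were described by their members, each gene being represented by its brightest tested probe set. Of 41 lists, 20 had a median difference above 0 and 21 below 0. No member of any list passed in the femoral fit, and 10 of the 618 listed genes tested passed over 4 group means, where 0.435% of all probe sets rose and 0.923% fell. Each list is set against all probe sets tested, whose median was 0.01 and of which 51.2% were positive.

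**Figure D4:**
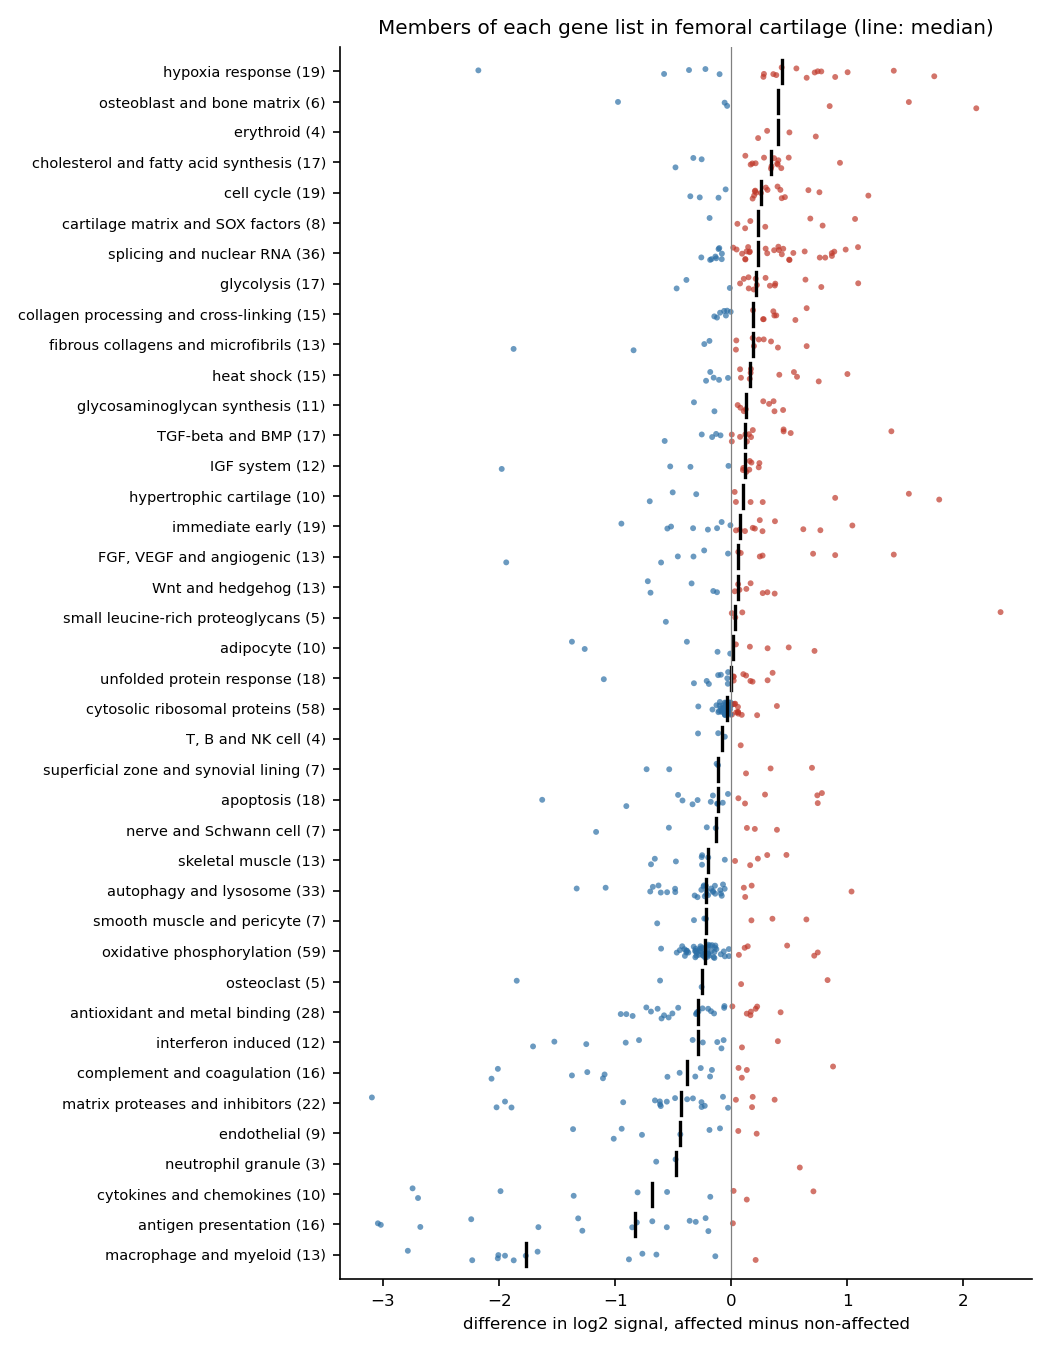
Difference in log2 signal, affected minus non-affected (horizontal axis), of each tested member of the lists with at least 3 tested members; red points are positive, blue points negative, the black line is the list's median, and the number of members stands in brackets. The macrophage list has the lowest median, -1.77, and the hypoxia list the highest, 0.43.

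The macrophage and myeloid list had the lowest median, -1.77, and 12 of its 13 tested members were lower in affected cartilage. At an unadjusted p under 0.05 there were 10 lower members, and 3 had groups that did not overlap, against 7.83% and 5.1% of all probe sets, but none passed an adjusted test (smallest adjusted p = 0.149). FCER1G, an Fc receptor subunit, read 5.40, 4.30, 4.0 and 5.74 in the affected and 5.92, 6.74, 7.47 and 7.33 in the non-affected samples (-2.01 ± 0.45). C1QC, a chain of complement C1q that macrophages make, read 8.07, 6.14, 6.90 and 9.56 against 9.42, 9.94, 11.52 and 10.93 (-2.79 ± 0.71). CD163, the macrophage receptor for haptoglobin and haemoglobin complexes, read 6.32, 4.39, 4.39 and 7.12 against 6.55, 7.56, 8.31 and 8.74 (-2.23 ± 0.67). For C1QC and CD163 affected 4 overlapped the non-affected samples.

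The order of the samples was alike across this list. For 11 of the 13 members affected 2 and 3 were the lowest 2 samples, and for 10 non-affected 4 and 5 were the highest 2. The mean of the list was 5.93, 4.94, 4.91 and 6.33 in affected 1 to 4 and 6.12, 6.66, 7.62 and 7.41 in non-affected 1, 3, 4 and 5, so that affected 4 lay above non-affected 1. AIF1, a marker of macrophages, was at the floor in affected 2 and 3 and read 5.19 to 7.73 in the non-affected samples. In bulk tissue, fewer cells of a type and less RNA per cell cannot be told apart. The lower genes named above were measured in the same samples as this difference in macrophage markers, and its part in their values was not tested.

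Antigen presentation genes had a similar sample order, with affected 2 and 3 lowest for 11 members and non-affected 4 and 5 highest for 10. Of 16 tested members, 15 were lower in affected cartilage (median -0.83), 9 of them at an unadjusted p under 0.05, against 7.83% of all probe sets. For 1 of the 16 the groups did not overlap, a share near the 5.1% of all probe sets. The class II genes differed most: SLA-DRA read 5.91, 4.31, 4.0 and 7.30 in the affected and 6.49, 7.52, 10.08 and 9.61 in the non-affected samples (-3.04 ± 0.91, adjusted p = 0.240), with affected 4 above non-affected 1. CIITA, the switch for class II genes, read 5.33, 5.12, 4.99 and 4.69 against 5.74, 5.86, 5.41 and 5.84 with no overlap (-0.68 ± 0.18, adjusted p = 0.204). Class I genes differed less (-0.85 for SLA-2 and -0.20 for SLA-8), and B2M, the shared light chain, was level at 0.01 ± 0.15.

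Cytokines and chemokines had a median of -0.68 (-0.16 without the filter on low values), with 7 of 10 tested members lower; TNFSF13 was the only member that passed over 4 group means. CXCL2, which attracts neutrophils, read 9.68, 5.27, 6.63 and 7.11 against 7.46, 10.41, 11.17 and 10.44 (-2.70 ± 0.98), with affected 1 within the non-affected range. IL18 read 7.12, 6.62, 6.09 and 6.3 against 7.23, 7.32, 7.48 and 7.33 with no overlap (-0.81 ± 0.22, adjusted p = 0.209), whereas IL6 and IL1B differed by 0.02 ± 0.23 and -0.18 ± 0.31. IL1A, TNF and CXCL8 were below the level filter. In the complement and coagulation list (median -0.38, 12 of 16 lower) KNG1 was the only call; C1S (-2.06 ± 0.84) and CFD (-1.37 ± 0.39) were lower without passing. Interferon-induced genes had a median of -0.29, with 10 of 12 lower, and here non-affected 4 stood out, at 11.07 for ISG15 and 9.57 for MX1 against at most 7.14 and 7.45 in the other samples.

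Matrix proteases and their inhibitors were lower for 18 of 22 tested members (median -0.43), 9 of them at an unadjusted p under 0.05, against 7.83% of all probe sets. MMP3 was the only call over 4 group means, where 0.923% of all probe sets fell. It was also the only member of the 22 without overlap, a share near the 5.1% of all probe sets. The lysosomal protease CTSH read 10.25, 9.86, 9.42 and 10.44 in the affected and 10.37, 10.86, 11.29 and 11.18 in the non-affected samples (-0.93 ± 0.27, adjusted p = 0.230). PLAU, the urokinase that activates plasminogen, read 7.66, 5.23, 6.74 and 8.44 against 8.32, 8.82, 8.87 and 9.63 (-1.89 ± 0.60, adjusted p = 0.256). In both, affected 4 came up to the lowest non-affected samples. The inhibitor TIMP1 differed by -0.56 ± 0.18. The collagenase MMP13 and the gelatinase MMP2 differed by 0.04 ± 0.23 and -0.26 ± 0.26, both within the spread of the samples.

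**Figure D5:**
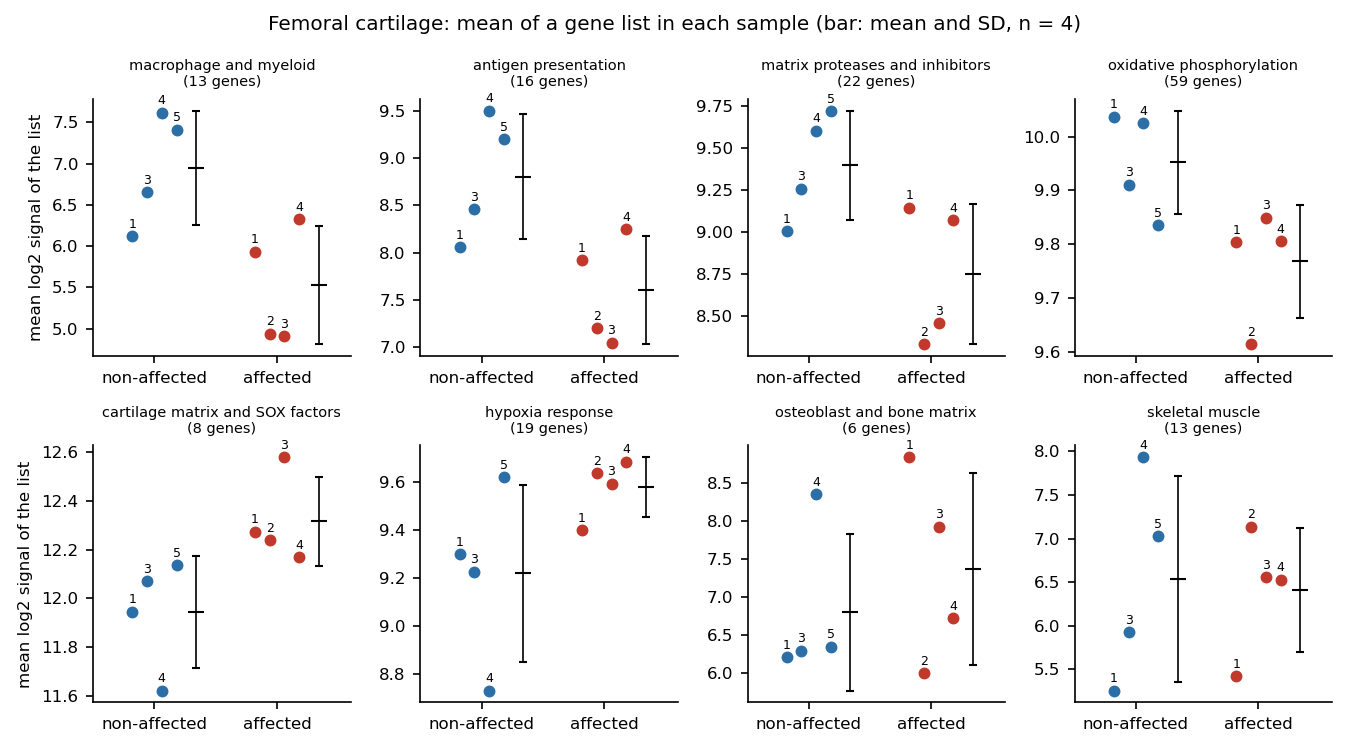
Mean log2 signal of 8 gene lists in each femoral sample, with blue for non-affected and red for affected samples, the sample number above each point and, at the right, the group mean with its SD (n = 4); each panel has its own vertical range. Affected 2 and 3 are lowest for macrophage, antigen presentation and protease genes, while bone genes are high in affected 1, affected 3 and non-affected 4 whatever the status.

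Genes of the cartilage matrix and the SOX factors that drive them were slightly higher in affected samples, with 7 of 8 tested members positive (median 0.23), none of them called. HAPLN1, the link protein that ties aggrecan to hyaluronan, read 11.94, 12.13, 12.47 and 11.11 in the affected and 11.67, 10.33, 10.49 and 10.90 in the non-affected samples (1.07 ± 0.35, adjusted p = 0.266). Collagen XI (COL11A1) read 10.11, 10.04, 11.53 and 9.98 against 9.59, 9.76, 9.29 and 9.87; the groups did not overlap, but the difference of 0.79 ± 0.33 rests largely on affected 3. SOX9, the master factor of chondrocytes, differed by 0.68 ± 0.34 with overlapping groups. ACAN (0.05 ± 0.17), COL2A1 (0.29 ± 0.21) and COMP (0.12 ± 0.15) had overlapping groups.

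The other small leucine-rich proteoglycans were nearer to 0 than ASPN. Decorin (DCN), biglycan (BGN) and PRELP differed by 0.00 ± 0.19, 0.03 ± 0.14 and 0.10 ± 0.15. Lumican (LUM) ran from 4.51 to 10.11 over the samples, with high and low values in both groups. Glycosaminoglycan synthesis genes had 9 of 11 tested members positive (median 0.12), and of these IMPAD1, a phosphatase of the sulphation pathway, had groups that did not overlap (0.36 ± 0.13). Fibrous collagens and microfibril genes had a median of 0.18, and among them periostin (POSTN) was lower, at -1.87 ± 0.73, with affected 1 inside the non-affected range. Collagen processing enzymes (8 of 15 positive, median 0.19) and superficial zone genes (3 of 7 positive, median -0.11) were spread around 0.

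Genes of hypertrophic cartilage were positive for 7 of 10 tested members (median 0.10) and bone matrix genes for 3 of 6 (median 0.41, or -0.11 without affected 1). Several markers were high in 3 samples of both groups. Collagen X (COL10A1) read 9.08, 4.0, 11.16 and 5.04 in the affected and 4.01, 4.0, 10.11 and 4.0 in the non-affected samples. Bone sialoprotein (IBSP) read 10.02, 4.0, 9.60 and 6.91 against 4.0, 4.0, 9.42 and 4.66. Affected 1, affected 3 and non-affected 4 were high for both genes, and for alkaline phosphatase (ALPL), and the others were low or at the floor, apart from 6.91 for IBSP in affected 4. Indian hedgehog (IHH), a signal of maturing chondrocytes, was nearly level at 8.04, 8.36, 8.09 and 7.74 against 7.83, 7.92, 7.77 and 8.04. Osteocalcin (BGLAP) was high only in affected 1, at 9.42. The differences of COL10A1 (1.79 ± 1.80) and IBSP (2.11 ± 1.51) were within this spread. The osteoblast factor SP7 fell over 4 group means on the probe set Ssc.26120.1.S1_at, by 0.98 ± 0.22 (adjusted p = 0.0306), while its brighter probe set differed by -0.06 ± 0.15. Without the 3 samples with high IBSP the femoral fit gave 7 calls and the fit over 4 group means 86.

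In 2 other genes of these lists the groups did not overlap, with affected lower. They were 1 of 6 tested bone members and 1 of 10 tested hypertrophic members, against 5.1% of all probe sets. DLX5, a homeobox factor of osteoblasts and chondrocyte maturation, read 9.69, 9.28, 8.98 and 9.73 in the affected and 10.57, 10.61, 10.38 and 10.04 in the non-affected samples (-0.98 ± 0.21, adjusted p = 0.141). S100A1, a calcium-binding protein of chondrocytes, read 10.02, 9.66, 9.79 and 10.02 against 10.85, 10.59, 10.05 and 10.81 (-0.70 ± 0.20, adjusted p = 0.222). In both, all affected samples lay below all non-affected samples, and neither passed. Of the osteoclast genes, tartrate-resistant acid phosphatase (ACP5) differed by -1.85 ± 0.77 and cathepsin K (CTSK) by -0.61 ± 0.27, with overlapping groups. CKB, the brain form of creatine kinase, was higher without overlap (0.83 ± 0.32, adjusted p = 0.298). The list was positive for 2 of 5 members, and its median of -0.26 became 0.03 without affected 2.

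Hypoxia response genes had the highest median of the lists, 0.43, with 14 of 19 tested members positive, 4 of them at an unadjusted p under 0.05, against 7.32% of all probe sets. ANGPTL4, a secreted inhibitor of lipoprotein lipase, read 8.65, 10.21, 11.36 and 10.48 in the affected and 8.0, 8.56, 8.94 and 9.61 in the non-affected samples (1.40 ± 0.53, adjusted p = 0.298). The glucose transporter SLC2A1 read 11.58, 12.39, 12.29 and 12.23 against 11.42, 11.46, 10.57 and 11.94 (0.78 ± 0.29, adjusted p = 0.296). Non-affected 4 was the lowest sample for 10 of the 19 members, and non-affected 5 lay within the affected range for both genes named. The mean of the list was 9.40, 9.63, 9.59 and 9.68 in the affected and 9.30, 9.23, 8.73 and 9.62 in the non-affected samples.

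Glycolysis genes were positive for 14 of 17 tested members (median 0.21), led by the lactate transporter SLC16A3 (1.09 ± 0.40, adjusted p = 0.293). PFKM, the muscle form of phosphofructokinase, went the other way, at 8.69, 8.30, 8.57 and 8.65 against 9.25, 9.09, 8.98 and 8.77 with no overlap (-0.47 ± 0.16). Respiratory chain and ATP synthase genes were lower for 53 of 59 members by a small amount (median -0.22). Of the lower members, 13 had groups that did not overlap and 8 had an unadjusted p under 0.05, against 5.1% and 7.83% of all probe sets; of the higher members 2 did not overlap, and none of the list passed (smallest adjusted p of the list = 0.207). NDUFB7, a subunit of complex I, read 7.70, 7.50, 7.63 and 7.89 in the affected and 8.39, 8.18, 8.58 and 7.98 in the non-affected samples (-0.60 ± 0.17). Affected 2 was the lowest sample for 38 of the 59 members. Cytochrome c (CYCS) was among the 6 positive members, at 9.34, 10.03, 9.87 and 9.30 against 8.63, 8.71, 8.94 and 9.29 with no overlap (0.74 ± 0.22).

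Antioxidant and metal-binding genes were lower for 21 of 28 tested members (median -0.29). PRDX5, a peroxiredoxin of mitochondria and peroxisomes, fell over 4 group means: it read 10.17, 9.96, 9.86 and 10.38 in the affected and 10.91, 11.08, 10.81 and 10.50 in the non-affected samples (-0.73 ± 0.17, adjusted p = 0.0377), and lost its call without affected 2, affected 3 or non-affected 1, 3 or 4. Catalase (CAT) and PRDX6 differed by -0.69 ± 0.23 and -0.63 ± 0.27. Autophagy and lysosome genes were lower for 29 of 33 (median -0.22), and RB1CC1 was among the 4 positive members. Of the lower members, 5 had groups that did not overlap and 5 had an unadjusted p under 0.05. Over all probe sets these shares were 5.1% and 7.83%. Of the higher members, 1 did not overlap and 1 had an unadjusted p under 0.05. The lysosomal protease CTSZ read 10.12, 8.94, 9.46 and 9.65 against 10.39, 10.38, 11.18 and 10.54 and the lysosomal lipase LIPA 7.28, 6.35, 5.84 and 7.48 against 7.54, 7.98, 8.56 and 8.19, both without overlap (-1.08 ± 0.27 and -1.33 ± 0.37). Cytosolic ribosomal protein genes stayed close to 0, with a median of -0.04 over 58 genes.

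Splicing and nuclear RNA genes were positive for 27 of 36 members (median 0.23), 7 of them at an unadjusted p under 0.05, against 7.32% of all probe sets. SREK1IP1 and NUP50 were its calls, where 0.435% of all probe sets rose. SRSF11, a splicing factor, read 9.15, 9.98, 9.96 and 8.81 against 9.09, 7.68, 8.36 and 8.85 (0.99 ± 0.36), with affected 2 and 3 high and non-affected 3 low. Cell cycle genes were positive for 15 of 19 (median 0.26). CDC45, a helicase component of DNA replication, read 8.26, 8.32, 7.91 and 8.14 against 7.25, 7.76, 7.39 and 7.56 without overlap (0.66 ± 0.16, adjusted p = 0.193); its other probe set differed by 0.10. TOP2A, the topoisomerase of dividing cells, was highest in affected 3, at 7.46, and differed by 1.18 ± 0.42. Cholesterol and fatty acid synthesis genes were positive for 14 of 17 (median 0.34), and this median was -0.05 without affected 2.

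Growth factor lists had medians near 0, with larger differences in single members. In the transforming growth factor beta and BMP list (median 0.12), the receptor TGFBR1 read 9.38, 10.88, 10.37 and 9.82 against 8.89, 8.22, 7.73 and 10.09 (1.38 ± 0.49), with non-affected 5 inside the affected range. The ligand TGFB1 differed by 0.51 ± 0.22 and TGFB3 by -0.57 ± 0.18, in opposite directions. In the IGF list (median 0.12) IGFBP6 was the only call; IGF1 differed by -0.53 ± 0.20 on its brightest probe set and by 0.12 and 0.15 on others, and IGF2 by 0.13 ± 0.31. Midkine (MDK), a heparin-binding growth factor, read 4.81, 4.25, 5.26 and 5.91 against 6.80, 6.34, 7.55 and 7.28 without overlap (-1.94 ± 0.37, adjusted p = 0.139). Vascular endothelial growth factor A (VEGFA) differed by 0.90 ± 0.45 on its brightest probe set and by 0.95, 0.05 and -0.07 on the others, none of which passed. The medians were 0.06 for the FGF, VEGF and angiogenic list and 0.06 for the Wnt and hedgehog list.

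Stress lists were mixed. Heat shock genes had a median of 0.16. HSPA4 and DNAJA1 (0.57 ± 0.20) showed no overlap, 2 of 15 tested members against 2.87% of all probe sets. Another HSPA4 probe set differed by -0.10. Unfolded protein response genes had a median of -0.004 and immediate early genes of 0.07. The apoptosis list (median -0.12) held GADD45A as its only call. The inhibitor CDKN1A differed by 0.78 ± 0.31.

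Markers of other cells that a joint sample can hold were low or varied across status. Skeletal muscle genes differed by a median of -0.20, and their mean was 5.42, 7.14, 6.56 and 6.53 in the affected and 5.25, 5.93, 7.93 and 7.03 in the non-affected samples, highest in non-affected 4. Endothelial genes had a median of -0.44; PECAM1 ran from 5.10 to 9.27 with affected 4 and non-affected 4 at the top. Neutrophil granule genes (median -0.48 over 3 genes) were high in affected 1, where NPG4 read 11.02, and erythroid genes (0.40 over 4 genes) were likewise highest in that sample. Medians were -0.22 for smooth muscle, 0.02 for adipocyte, -0.08 for lymphocyte (4 genes), -0.26 for osteoclast (5 genes) and -0.13 for nerve genes. Some of these medians turned with 1 sample: skeletal muscle was 0.25 without affected 1 and smooth muscle 0.21 without non-affected 4. The part of these cells in the differences was not tested.

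The humeral samples show how far the femoral levels are from those of the other joint. The femoral mean of AZGP1 was 6.11 with and 8.11 without the disease, and its humeral mean 6.70 with and 6.50 without it. For CES1 these means were 4.56, 7.59, 5.28 and 5.12, in the same order. In both genes non-affected femur was the highest of the 4 groups. Spiked controls were also higher on the femoral than on the humeral arrays, by 0.21 to 1.62. The part of this in the levels of the 2 sites was not tested. HP was different, with means of 4.33, 7.14, 8.63 and 7.73, so that affected femur was the lowest group. The status effects of the 2 sites differed for 69 probe sets (0.411%) in a direct test, including AZGP1 (adjusted p = 0.00523) and CES1 (0.0213) but not HP (0.0946).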

How the data were processed

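Total RNA of articular cartilage was hybridized as biotin-labelled cRNA to the Affymetrix Porcine Genome Array. The deposited value table holds log2 signals, a scale read from the values (4.0 to 17.6); GCOS 1.1.1 is named per the submitters' processing notes, and the sources used here do not give the normalization step. No further normalization was applied. Arrays whose values differed by an SD under 0.25 were averaged, which joined 1 femoral and 1 humeral pair and left 8 femoral and 21 samples in all. Of 24123 probe sets, 124 controls and the 7200 with a femoral mean under the 30th percentile (5.18) were left out, and 16799 were tested with limma 3.58.1 (R 4.3.3): 4 affected against 4 non-affected femoral samples, then the means of 4 groups over both sites. A probe set whose mean in 1 group lay under the filter level passed the filter only through the other group. Those that passed through the non-affected samples included HP, CIT, CES1, AQP5, MDK, FCER1G, C1QA and CIITA. Those that passed through the affected samples included APPL2, ARHGAP5 and PLEKHO1. P-values were adjusted over all probe sets (Benjamini-Hochberg), and calls have an adjusted p under 0.05. Errors are SE of the fit named.

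Gene names come from the platform annotation: 10069 probe sets have 1 symbol, 198 several and 13732 are not listed. Named genes have 1 symbol and are the calls, the 10 smallest p and the 10 largest differences in each direction, among calls over 4 group means and among non-overlapping groups with an unadjusted p under 0.01, and the 3 leading members of each list; other members of the lists were named after their values were seen. The members and lists were chosen with earlier results of these data known. Scripts were tested on simulated data. The alternatives changed the filter, floor, scaling, model of the variance, weighting of arrays, choice of 1 probe set per gene, close pair and samples.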

Additional observations from a re-analysis of the deposited data

Results flagged for a closer look

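Within each femoral group of 4 samples, a sample was picked out where it stood so far from the other 3 that its gap to the nearest, divided by the range of the group, exceeded Dixon's critical value. Chance marks about 1 in 20 groups. Of 332 groups tested over the named probe sets 21 were marked, and of 80 groups tested over list means 6. Several marked genes have been described above in every sample: CES1 in affected 4 (5.07), NUP50 in affected 2 (6.90), COL11A1 in affected 3 (11.5), and IBSP (9.42), COL10A1 (10.1) and ALPL (9.98) in non-affected 4. GFAP was low in affected 3 (5.56, others from 6.11). LUC7L3 was high in non-affected 1 (6.44, others up to 5.81), the cytokine TGFB1 in affected 2 (9.58, others up to 9.07), ACAN in non-affected 3 (13.7, others up to 13.2) and the neutrophil gene NPG4 in affected 1 (11.02, others up to 5.06).

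PTHLH, the parathyroid hormone-like factor that holds back chondrocyte enlargement, was low in affected 4 (8.21, others from 9.51). ENPP1, which makes the mineralization inhibitor pyrophosphate, was low in affected 4 (11.1, others from 11.5) and in non-affected 3 (11.3, others from 11.8). The endothelial cadherin CDH5 was high in affected 4 (7.14, others up to 4.49) and the T cell gene CD8B low there (5.54, others from 6.92). The kinase SGK1 (11.01, others up to 10.2) and the myelin gene MBP (5.76, others up to 4.96) were high in non-affected 3. In non-affected 4 the neutrophil gene S100A9 was low (5.13, others from 6.22) and the ribosomal protein gene RPS15A high (5.81, others up to 5.46). The adipocyte hormone ADIPOQ was high in affected 3 (5.96, others up to 5.58).

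Among list means, non-affected 4 was high for bone matrix (8.35, others up to 6.35) and Wnt and hedgehog genes (8.55, others up to 8.23) and low for cholesterol synthesis (7.89, others from 8.34). Affected 1 was high for erythroid genes (8.19, others up to 6.95), affected 2 for the unfolded protein response (10.5), and non-affected 1 low for apoptosis genes (7.88, others from 8.01).

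The status effect in the femur differed from that in the humerus, in a direct limma test adjusted over all probe sets, for 15 of the 166 named probe sets. Over all 16799 probe sets tested this held for 69 (0.411%). Many named probe sets were chosen for a small p or a large difference in the femur, and that difference is part of this contrast. The larger share among them is therefore not a result about these genes. The femoral effect minus the humeral effect was -2.20 for AZGP1 (adjusted p = 0.00523), -1.62 for HAAO (0.000972), -2.06 for CIT (0.000510), -2.37 for TNFSF13 (0.00760) and -3.07 for FAU (0.000510). It was -1.13 for STX8 (0.0478), -2.41 for GADD45A (0.0231), -2.71 for FAM46C (0.0125), -2.09 for AQP5 (0.0309), -2.44 for IGFBP6 (0.0383) and -3.20 for CES1 (0.0213). The positive ones were 1.02 for SREK1IP1 (0.0436), 0.98 for KNG1 (0.0309), 1.17 for NUP50 (0.0140) and 1.05 for CDC45 (0.0436). The arrays of the 2 sites also differed in their spiked controls, and the part of that was not tested.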

How the results depend on the processing

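The 4 calls among the femoral samples became 1 with probe sets under the 50th percentile left out, 2 with array weights, 38 with all 9 arrays as separate samples (which counts the near-identical pair as 2 samples) and 228 with the means of 4 groups. Leaving out 1 sample at a time gave 0 to 42. Of the alternatives chosen after seeing the data, leaving out the 3 samples with a high actin control gave 0 and leaving out the 3 with high IBSP gave 7. The 228 calls over 4 group means became 150 with the 50th percentile filter, 76 with array weights, 77 when each gene had a single probe set (which tests fewer features), 554 with all 9 arrays, 73 to 573 without 1 sample, 99 without the samples of high actin and 86 without those of high IBSP. Apart from what is said in brackets, the cause was not tested. The share of lower genes among these calls was 68.0% and ran from 53.7% to 87.0%; it was 76.0% with arrays at a common median. The other alternatives for counts of calls stayed within 1.5 times. No named gene that passed changed direction under any alternative. Outside the single samples left out, array weights ended the calls over 4 group means of APPL2, BMP15, BPIFA2, EGLN1, GADD45A, GFAP, IGFBP6, KIF2A, KLF13, MMP3, PRDX5, RB1CC1 and SREK1IP1. Leaving out the samples of high actin ended those of the same genes except GFAP, and of KNG1, NUP50, PLEKHO1, STX8 and TNFSF13. Leaving out those of high IBSP ended the same calls except BPIFA2, KNG1 and TNFSF13, and that of GFAP. BMP15, MMP3, PRDX5 and RB1CC1 lost theirs under further settings, and the highest adjusted p among these was 0.393, for MMP3. The macrophage median ran from -2.25 to -1.28, that of antigen presentation from -1.08 to -0.62, of oxidative phosphorylation from -0.26 to -0.17 and of hypoxia from 0.29 to 0.52. Other medians moved more: cytokines from -0.93 to -0.16, cartilage matrix from 0.11 to 0.36, splicing from 0.11 to 0.37, cell cycle from 0.13 to 0.43, transforming growth factor beta from 0.01 to 0.15 and erythroid from 0.03 to 0.62. Those of the small leucine-rich proteoglycan, superficial zone, bone matrix, osteoclast, neutrophil, lymphocyte, skeletal and smooth muscle, adipocyte, cholesterol synthesis, unfolded protein, immediate early, heat shock, Wnt and FGF lists changed sign under at least 1 alternative. No paired analysis was possible because the labels do not say which affected and non-affected animals were sibs. Exact permutation of 4 against 4 samples cannot go below p = 0.0286, and the number of arrays limits the precision.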

Other observations

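Of the 155 probe sets that fell in the fit of 4 group means, 130 had lower means in both humeral groups than in non-affected femur, as described for AZGP1 and CES1. The unnamed Ssc.7996.1.A1_at, which had the smallest p in the femur, was not of this kind, nor was HP, which passed in the femoral samples alone. This count has no test of its own, because the choice of these probe sets used the non-affected femoral samples. The share of all probe sets tested with such means was not counted, so the count is not a result about these calls. The spiked controls also differed between the arrays of both sites.

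STC1, the hormone stanniocalcin, which affects phosphate and calcium handling, was on the hypoxia list and was chosen after its values were seen. It read 11.25, 4.45, 4.70 and 6.59 in affected 1, 2, 3 and 4, and 9.49, 8.55, 9.19 and 8.47 in non-affected 1, 3, 4 and 5. Affected 1 was the highest of all samples and the other affected samples the lowest, and the difference of -2.18 ± 1.26 was within this spread (limma adjusted p = 0.420). Its other tested probe set differed by -0.69 ± 0.93.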
